A study of Mus musculus with 6 samples.

Results

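Growth factor ligands and the receptor tyrosine kinases that bind them were followed as a group of 46 genes in mouse cardiac fibroblasts, out of 22063 genes in the table. A gene was a member when its symbol was on a list of ligands and receptors of the PDGF, FGF, EGF, HGF, VEGF and angiopoietin, neurotrophin, GAS6, CSF1 and KIT ligand, and midkine and pleiotrophin families. The list holds 31 ligands, 13 receptors and 2 receptor-like proteins without a kinase, Pdgfrl and Fgfrl1. These symbols fill 47 rows, because Nrg1 has 2 Ensembl identifiers, of which ENSMUSG00000118541 had 0 counts in every library, and all values of Nrg1 are those of ENSMUSG00000062991. Of the 46 members, 43 passed the filter on low counts and were tested. Fgfr4 (0 to 3 counts per library), Areg (0 to 7 counts) and Fgf5 (1 to 9 counts) did not pass and were not compared.

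RNA was sequenced from primary cardiac fibroblasts whose Tet3 alleles are flanked by loxP sites, in 6 libraries. In 3 of them the cells had been transduced with an adenovirus coding for green fluorescent protein (GFP), and in the other 3 with an adenovirus coding for Cre recombinase (CRE), which excises DNA between loxP sites. All 6 cultures had received TGF-β, the cytokine that drives fibroblasts towards contractile myofibroblasts. Per the study's reagent list, both adenoviruses carry a CMV promoter, which is active in most cell types, and a fluorescent tag. The comparison asks which transcripts depend on TET3, an enzyme that oxidises 5-methylcytosine, in fibroblasts under TGF-β. Cells without TGF-β and cells without floxed alleles that received Cre were not analysed here, so that an effect of Cre itself and the loss of Tet3 cannot be told apart. The age and sex of the mice are not given in the sources used here. The study's figure legends speak of biological replicates, without saying whether those were separate animals or separate cultures, and the labels do not say either. The p-values therefore measure the spread between these libraries, which may in part be technical.

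Receptor tyrosine kinases are cell surface proteins that pair up when a growth factor binds outside the cell, phosphorylate each other on tyrosine inside it, and start the RAS-ERK and PI3K cascades. In the heart, fibroblasts divide and migrate in response to PDGF and FGF, and are themselves a source of ligands for their neighbours: VEGFs and angiopoietins act on endothelial cells, neuregulin on cardiomyocytes, HGF and FGF7 on epithelial cells, and CSF1 on macrophages. Several ligands are held in the matrix by heparan sulphate or made as membrane-bound precursors that are cut by proteases, so a transcript level is not the amount of active ligand.

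To show what lies before the start sites of ligands that moved in opposite directions, the 250 bases before the annotated start are printed for Fgf18, which rose, and for Fgf7, Pdgfc and Vegfb, which fell. They are RefSeq sequences of GRCm38.p6, the build to which the reads had been aligned, printed 5′ to 3′ on the strand of the gene, with CpG dinucleotides, the main substrate of cytosine methylation, in capitals. The windows lie at chr11:33147401-33147650 on the minus strand for Fgf18, chr2:126034408-126034657 on the plus strand for Fgf7, chr3:81036166-81036415 on the plus strand for Pdgfc and chr19:6987652-6987901 on the minus strand for Vegfb. No base of them lies in an annotated exon of the gene.
Fgf18: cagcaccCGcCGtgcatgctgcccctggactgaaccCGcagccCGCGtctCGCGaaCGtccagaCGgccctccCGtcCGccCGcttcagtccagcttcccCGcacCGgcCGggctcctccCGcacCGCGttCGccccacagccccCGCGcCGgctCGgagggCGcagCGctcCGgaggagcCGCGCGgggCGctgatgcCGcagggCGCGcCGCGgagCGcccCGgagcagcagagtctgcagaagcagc
Fgf7: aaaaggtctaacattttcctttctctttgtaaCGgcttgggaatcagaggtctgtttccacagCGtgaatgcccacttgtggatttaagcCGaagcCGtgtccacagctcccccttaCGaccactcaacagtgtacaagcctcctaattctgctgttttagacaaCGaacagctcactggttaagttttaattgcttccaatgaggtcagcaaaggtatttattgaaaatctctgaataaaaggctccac
Pdgfc: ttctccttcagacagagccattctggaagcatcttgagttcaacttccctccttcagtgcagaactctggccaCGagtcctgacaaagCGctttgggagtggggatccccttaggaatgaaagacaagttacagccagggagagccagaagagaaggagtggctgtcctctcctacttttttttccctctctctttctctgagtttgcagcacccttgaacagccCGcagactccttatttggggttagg
Vegfb: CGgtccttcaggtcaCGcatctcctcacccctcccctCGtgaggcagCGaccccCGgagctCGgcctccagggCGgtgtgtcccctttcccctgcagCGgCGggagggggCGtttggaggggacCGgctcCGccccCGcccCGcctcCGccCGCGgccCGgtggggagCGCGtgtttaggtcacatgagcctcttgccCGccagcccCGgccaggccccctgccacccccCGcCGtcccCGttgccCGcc
The Fgf18 window holds 37 CpG, as many as or more than in 98.1% of all 32851 RefSeq promoter windows of that length in the table. Fgf7 has 6 and Pdgfc 3, where the median over all windows is 6. Vegfb, which fell as well, has 26. The genes printed are examples, and Fgf18 has the most CpG of any member window counted.

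Such a window was used for 33 of the 46 members, 43 windows in all since some genes have several starts. Member windows on chromosome 18, where Hbegf, Fgf1 and Pdgfrb lie, were left out of the member counts. The values over all windows and over all tested genes include that chromosome. The median was 19 CpG over the 13 windows of 11 members that were higher in CRE, 6.5 over the 14 windows of 12 members that were lower, and 9 over the 13 windows of 7 members that were not called. Over all tested genes the medians of the same classes were 17, 14 and 15. Counts ranged from 3 (Pdgfd) to 37 (Fgf18) among the higher members and from 2 (Vegfd) to 30 (Vegfc) among the lower members, so the ranges overlap. In 12 of the 43 windows some bases lie in an annotated exon of the gene itself, all 250 in that of Fgf2. Without those windows, a choice made after the values were seen, the medians were 19, 8 and 8.5 over 8, 9 and 12 windows. Windows of one gene are not independent, and 7 of the 13 windows of uncalled members belong to Bdnf. An AP-1 motif (TGANTCA) was found on either strand in 2 of the 43 windows (4.7%, against 6.7% of all windows), a TEAD motif (GGAATG) in 4 (9.3% against 12.6%) and a CArG box in 1 (2.3% against 1.5%). These are matches of letters in a short window, and no binding or methylation was measured in these libraries.

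**Figure D1:**
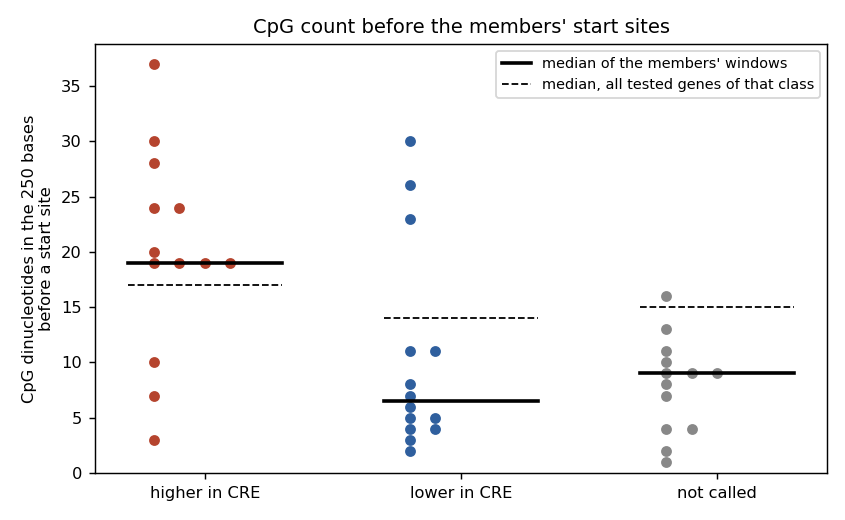
Number of CpG dinucleotides in the 250 bases before each annotated start site (vertical axis) for members that were higher in CRE, lower in CRE or not called. Member windows on chromosome 18 are left out. Points are start sites, the thick line is their median (19, 6.5 and 9) and the dashed line is the median over all tested genes of that class (17, 14 and 15); the points of the 3 classes overlap.

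Total gene counts lay between 17002126 and 20343590 per library. At these depths 3 counts, the upper limit that a count of 0 allows, correspond to between 0.156 and 0.187 CPM (normalized counts, scaled to the effective library size), which covers counting error only. The correlation of log2 CPM over genes was 0.993 to 0.996 within a group and 0.974 to 0.978 between the groups. GFP replicate 1 stood apart on the second principal component (0.77, against -0.53 to 0.14 for the others), and 23 of the 43 tested members had their lowest GFP value in that library. Results that rest on it are given with and without it. Tet3 itself had 1044, 965 and 1000 counts in GFP and 642, 649 and 637 counts in CRE, 57.1 ± 6.88 against 34.7 ± 1.17 CPM (SD, n = 3 each), a log2 fold change of -0.72 (SE 0.08, adjusted p = 5.36e-05; -0.62 without GFP replicate 1). Reads from the Tet3 exons outside the excised part are included in these counts.

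The labelled cell type was checked against marker lists. The 11 fibroblast markers were all expressed, with a summed level of 41144.0 to 42461.9 CPM in GFP and 22553.1 to 24639.7 CPM in CRE, and 10 of 11 were lower in CRE. Of 11 cardiomyocyte and 6 lymphocyte markers none reached the filter. Endothelial markers were present at a summed 450.3 to 499.5 CPM in GFP and 226.1 to 257.2 CPM in CRE. Macrophage markers summed to 34.6 to 37.3 CPM in GFP and 21.4 to 25.6 CPM in CRE. Only 5 of the 14 macrophage markers passed the filter. Lyz2 alone made up most of the macrophage sum, with means of 23.5 CPM in GFP and 14.6 CPM in CRE. In such bulk libraries, fewer cells of a type and less of its RNA per cell cannot be told apart.

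Across the 43 tested members, 14 were higher and 18 were lower in CRE by edgeR's quasi-likelihood test at an adjusted p under 0.05, and 11 were not called. That is 74.4% called, against 51.2% of the 12862 genes tested, 32.6% higher against 25.5%, and 41.9% lower against 25.7%. The groups did not overlap for 29 members (67.4%, against 59.6% of all tested genes). With the study's own size limits, a fold over 1.5 or under 0.66 at an unadjusted p under 0.05, 8 members were higher (18.6%, against 7.52%) and 13 lower (30.2%, against 10.3%). The median log2 fold change was -0.06 for the members and 0.01 for all tested genes. Log2 fold changes of called members ran from 0.25 to 1.63 among the higher and from -1.36 to -0.23 among the lower.

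Ligands and receptors were also counted separately. Of 29 tested ligands, 9 were higher and 15 lower, with a median log2 fold change of -0.57, that is 31.0% higher and 51.7% lower, against 25.5% and 25.7% of all tested genes. Of 12 tested receptors, 4 were higher and 2 lower, with a median of 0.18, and 6 were not called. Only 2 receptors were higher with DESeq2, without GFP replicate 3 or without CRE replicate 2. The share of receptors called, 50.0%, is near the 51.2% of all tested genes. No test compared the ligands with the receptors. Within the 9 families, the PDGF, FGF, EGF, HGF, and CSF1 and KIT ligand families each held members that moved in opposite directions, while the 6 VEGF and angiopoietin ligands and both midkine family members were lower.

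**Figure D2:**
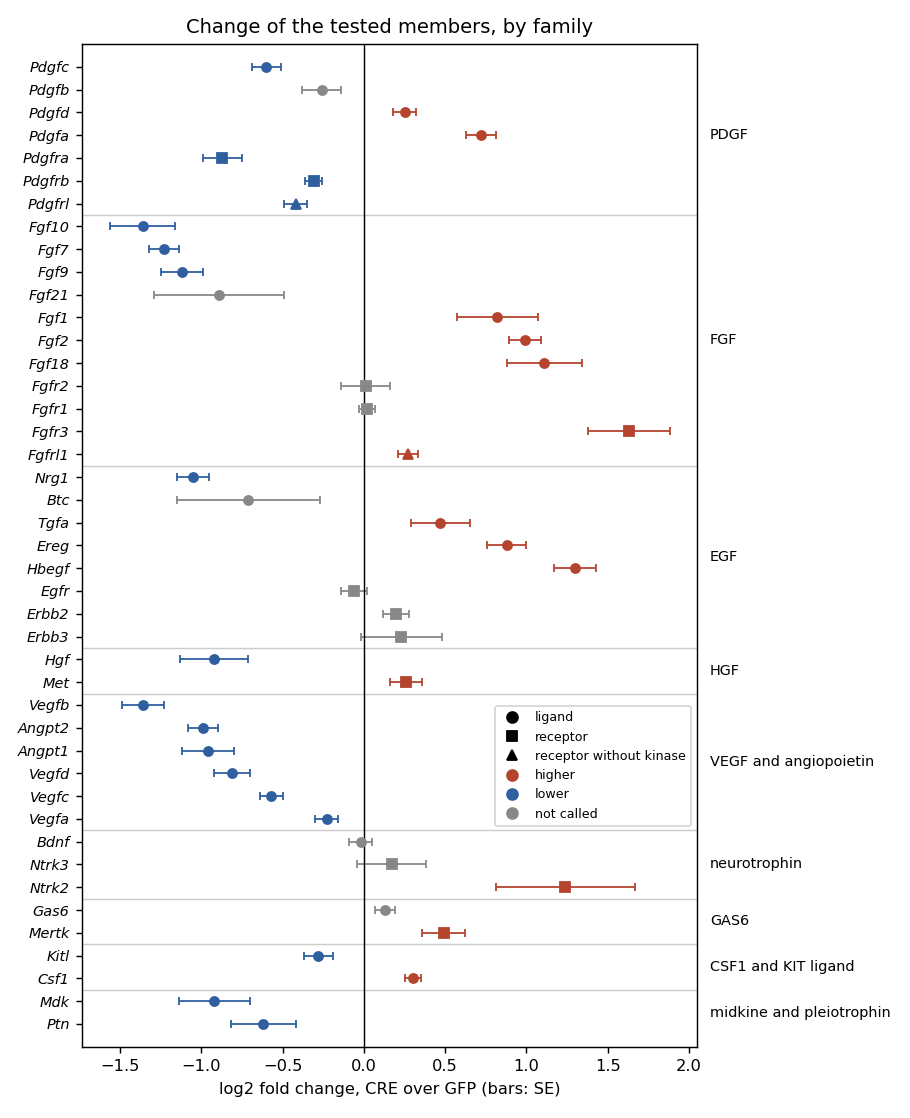
Log2 fold change of CRE over GFP for the 43 tested members, grouped by family (right). Circles are ligands, squares receptors and triangles receptor-like proteins without a kinase; bars are SE, and colour gives the call at an adjusted p under 0.05. All 6 VEGF and angiopoietin ligands lie left of 0, and the FGF and EGF ligands lie on both sides.

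Levels were compared between genes on the FPKM scale, which divides by transcript length. Csf1, the ligand that macrophages need to survive, was the most abundant member in every library, at 598.2 to 662.6 FPKM in GFP and 833.8 to 889.0 FPKM in CRE. In GFP it was followed by Gas6 (168.1 to 201.0) and Pdgfrb (160.6 to 184.1), which overlapped, then Fgfr1 (113.3 to 126.6) and Vegfa (101.5 to 110.2). Fgf2 (58.9 to 74.1 FPKM), Fgf7 (56.6 to 69.6) and Pdgfra (52.9 to 77.0) came next in GFP and could not be ordered. In CRE the order was Csf1, Gas6 (219.1 to 233.3), then Pdgfrb (148.6 to 155.4), Fgf2 (130.5 to 156.8) and Fgfr1 (132.8 to 140.9), where Fgf2 overlapped both of its neighbours. Vegfa (93.7 to 103.1 FPKM) was next in CRE, and Pdgfra (37.6 to 45.0) and Fgf7 (27.4 to 32.6) lay below it. Fgf2 thus overlapped Fgf7 and Pdgfra in GFP, and Pdgfrb and Fgfr1 in CRE. At the low end, Fgfr3, Ntrk2, Ntrk3, Erbb3, Btc, Fgf1, Fgf10 and Tgfa had means of at most 1.12 FPKM in both groups. Over the tested genes the median log2 ratio of mean FPKM was 0.17, against a median log2 fold change of 0.01 from the counts, so that differences between groups are taken from the counts.

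**Figure D3:**
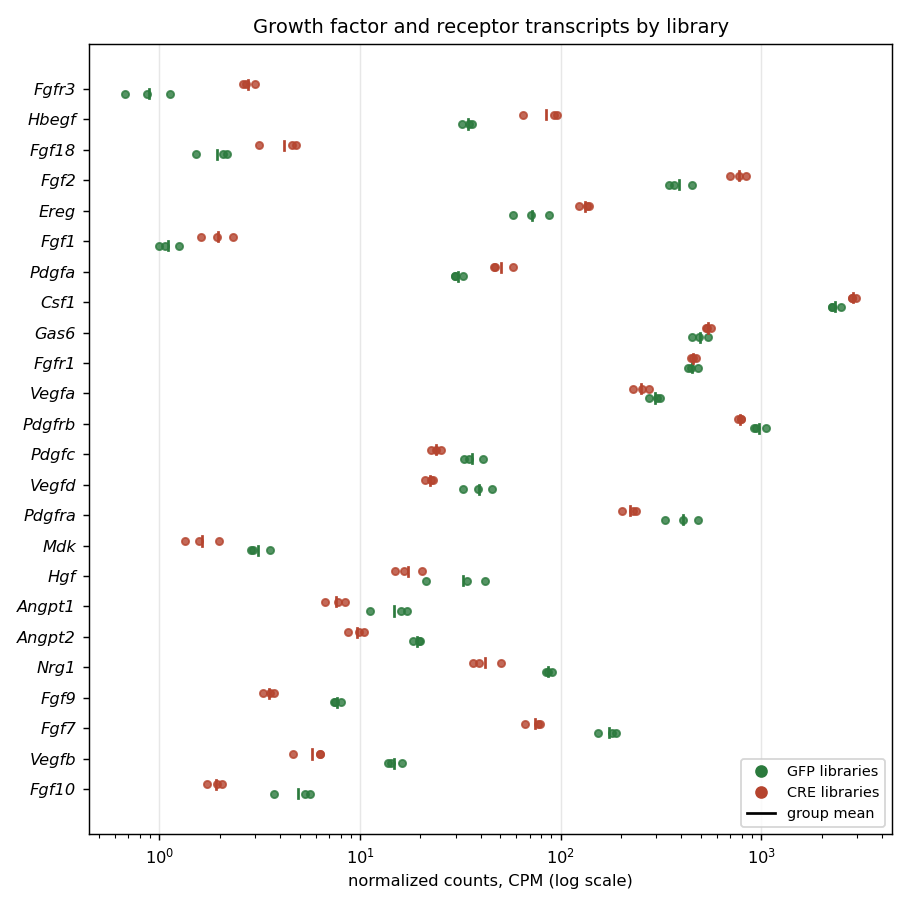
Normalized counts (CPM, log axis) of 24 members in the 3 GFP (green) and 3 CRE (red) libraries, with the mean of each group as a vertical line. Shown are members past the fold and adjusted p limits whose groups do not overlap and the 8 members with the highest mean FPKM, ordered by log2 fold change from Fgf10 (-1.36) to Fgfr3 (1.63); Gas6 and Fgfr1 overlap between groups.

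PDGF-A and PDGF-C, both of which bind PDGF receptor alpha, moved in opposite directions. Pdgfa had 32.5, 29.8 and 29.6 CPM in GFP and 46.3, 58.0 and 47.0 CPM in CRE, a log2 fold change of 0.72 (SE 0.09, adjusted p = 9.46e-05). Pdgfc had 41.0, 35.0 and 33.1 CPM in GFP and 25.3, 24.0 and 22.5 CPM in CRE, a log2 fold change of -0.60 (SE 0.09, adjusted p = 0.000238). Neither gene overlapped between groups. The FPKM ratio of Pdgfa to Pdgfc was accordingly 1.45 ± 0.0527 in GFP and 3.70 ± 0.44 in CRE (SD, n = 3 each). Pdgfd, which binds receptor beta, was higher by 0.25 (SE 0.07, adjusted p = 0.0118), and Pdgfb, a ligand of both receptors, was not called (-0.26, SE 0.12, adjusted p = 0.103; -0.36 and called without CRE replicate 1, adjusted p = 0.0465, and -0.14 without CRE replicate 3). Summed over the 4 PDGF ligands, the level was 39.8 to 43.9 FPKM in GFP and 50.4 to 60.0 FPKM in CRE, of which Pdgfa made up 38.5% and 53.4%. The FPKM scale itself sets CRE higher, by the median of 0.17 given above, for this sum and for the sums below.

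Both PDGF receptors fell. Pdgfra, which also marks fibroblasts, had 330.7, 485.5 and 407.1 CPM in GFP and 201.5, 230.1 and 237.2 CPM in CRE, a log2 fold change of -0.87 (SE 0.12, adjusted p = 0.000161). The lowest GFP value is that of replicate 1, and the log2 fold change was -1.0 without it. Pdgfrb, the receptor of mural cells and fibroblasts, had 1055.1, 947.6 and 917.6 CPM in GFP and 763.7, 791.0 and 793.5 CPM in CRE, a log2 fold change of -0.31 (SE 0.05, adjusted p = 0.000804). It was -0.15 with scaling by library size alone (adjusted p = 0.0329) and lost the call on log2(FPKM + 1) (-0.15, adjusted p = 0.055). The groups of both genes were separate, but the FPKM ratio of Pdgfra to Pdgfrb (0.287, 0.465 and 0.414 in GFP, 0.253, 0.276 and 0.290 in CRE) overlapped through GFP replicate 1. Pdgfrl, a secreted receptor-like protein, was lower by a log2 fold change of -0.42 (SE 0.07, adjusted p = 0.000818). Markers of smooth muscle and pericytes fell in 5 and rose in 1 of 10 tested genes, with a summed 174.7 to 194.4 CPM in GFP and 143.1 to 163.5 CPM in CRE, and 10 of 11 fibroblast markers, of which Pdgfra is 1, were lower. The part of either in these results was not tested.

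Among the FGF ligands, 3 rose and 3 fell. Fgf2, the basic FGF that is kept in the matrix and stimulates fibroblast growth, was among the most abundant members. It had 348.2, 452.4 and 366.5 CPM in GFP and 774.5, 843.6 and 702.3 CPM in CRE, 1.99 times the GFP level (log2 fold change 0.99, SE 0.10, adjusted p = 1.89e-05). Every CRE library was far above the highest GFP library. Fgf18, known for its role in bone and lung, stood at 2.18, 1.52 and 2.08 CPM in GFP and 4.78, 4.6 and 3.12 CPM in CRE, a log2 fold change of 1.11 (SE 0.23, adjusted p = 0.00252). Fgf1, the acidic FGF that binds all FGF receptors, was near the filter with 16, 19 and 24 counts in GFP and 30, 35 and 44 counts in CRE. Its groups did not overlap, and its log2 fold change was 0.82 (SE 0.25, adjusted p = 0.0209), but the call was lost without GFP replicate 1 (adjusted p = 0.0559), GFP replicate 2 (0.0546) or CRE replicate 3 (0.0831), and with DESeq2 (0.0626).

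The FGF ligands that fell were those that act on FGFR2b in epithelia, Fgf7 and Fgf10, and Fgf9, an epicardial and mesothelial ligand. Fgf7, also called keratinocyte growth factor, had 153.0, 189.7 and 181.0 CPM in GFP and 66.6, 77.4 and 79.4 CPM in CRE, 42.6% of the GFP level (log2 fold change -1.23, SE 0.09, adjusted p = 2.74e-06). Fgf10 had 60, 94 and 108 counts in GFP and 36, 31 and 39 counts in CRE, a log2 fold change of -1.36 (SE 0.20, adjusted p = 0.000332). Fgf9 had 7.46, 8.06 and 7.38 CPM in GFP and 3.71, 3.27 and 3.54 CPM in CRE, a log2 fold change of -1.12 (SE 0.13, adjusted p = 5.37e-05). None of these groups overlapped. Fgf21, a circulating metabolic hormone, had 39, 14 and 32 counts in GFP and 12 to 18 counts in CRE and was not called (-0.89, SE 0.40, adjusted p = 0.0881). Its log2 fold change was -1.23 and passed the test without GFP replicate 2 (adjusted p = 0.0133), and was -0.52 without GFP replicate 1. The mesothelial and epicardial markers summed to 143.9 to 164.3 CPM in GFP and 99.9 to 106.9 CPM in CRE, with 3 of 6 tested markers higher and 2 lower. Aldh1a2 alone accounts for most of that sum (145.5 ± 9.63 and 93.1 ± 1.53 CPM), Wt1 is the other lower marker, and Krt19, Upk1b and Upk3b were higher, of which Krt19 (9 to 15 counts in GFP) and Upk1b (7 to 12) passed the filter through CRE. Their part in the level of Fgf9 was not tested.

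The composition of the FGF ligand pool is given per library, with no test. The summed FPKM of the FGF ligands was 124.4, 151.1 and 136.2 in GFP and 178.4, 198.4 and 170.0 in CRE. Fgf2 made up 47.0% ± 2.32 of it in GFP and 78.4% ± 1.39 in CRE, and Fgf7 46.9% ± 1.89 and 16.9% ± 2.01 (SD, n = 3 each). The ratio of Fgf2 to Fgf7 was 1.04, 1.07 and 0.908 in GFP and 5.16, 4.89 and 4 in CRE, without overlap.

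**Figure D4:**
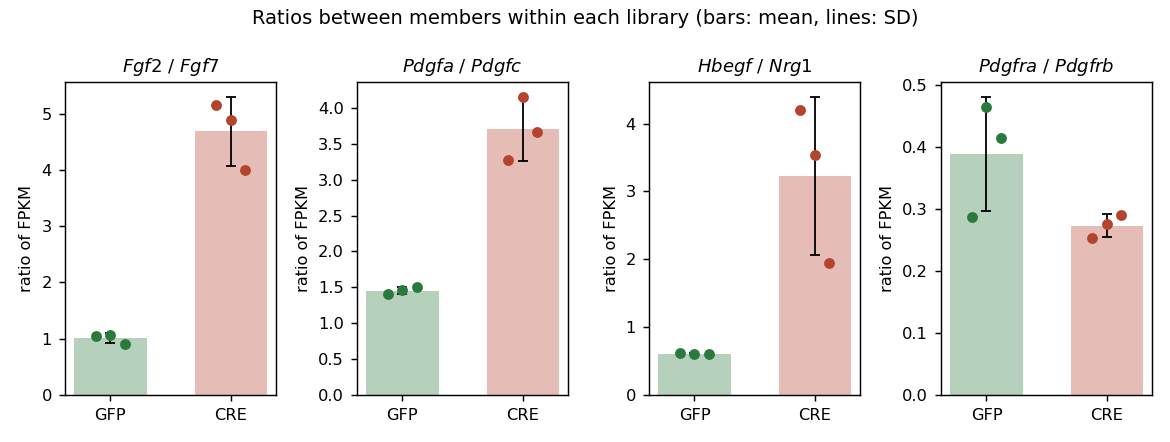
Ratios of FPKM between pairs of members within each library: Fgf2 to Fgf7, Pdgfa to Pdgfc, Hbegf to Nrg1 and Pdgfra to Pdgfrb (vertical axes, starting at 0), for 3 GFP and 3 CRE libraries (points), with the mean (bar) and SD (line). The first 3 ratios do not overlap between groups, while the ratio of Pdgfra to Pdgfrb overlaps through GFP replicate 1 at 0.287.

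Of the 3 tested FGF receptors, 1 was called. Fgfr1, the main FGF receptor of fibroblasts, had 431.3, 481.6 and 446.9 CPM in GFP and 456.6, 445.5 and 474.8 CPM in CRE, a log2 fold change of 0.02 (SE 0.05, adjusted p = 0.792), and the groups overlapped. With scaling by library size alone it was 0.18 and on log2(FPKM + 1) 0.20, and passed the test in both. Fgfr2, whose epithelial form binds FGF7 and FGF10, was not called (0.01, SE 0.15). Fgfr3 had the largest log2 fold change of the 43 members on the count scale with all libraries (1.63, SE 0.25, adjusted p = 0.000354). It rose from 14, 20 and 13 counts in GFP to 56, 47 and 51 counts in CRE, at a level well below that of Fgfr1. On log2(FPKM + 1) Fgfr3 was at 0.57, below Hbegf at 1.38, and without GFP replicate 1 it was at 1.62, below Ntrk2 at 1.78. Fgfrl1, which binds FGF but lacks the kinase domain, was higher by 0.27 (SE 0.06, adjusted p = 0.00514).

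Of the 5 tested EGF family ligands, Hbegf, Ereg and Tgfa were called higher, Nrg1 lower, and Btc was not called. Hbegf, a membrane-bound ligand of EGFR and ERBB4, had 36.1, 34.8 and 32.3 CPM in GFP and 96.3, 92.5 and 64.6 CPM in CRE, 2.46 times the GFP level (log2 fold change 1.30, SE 0.13, adjusted p = 2.38e-05). Ereg, epiregulin, had 57.6, 87.4 and 71.2 CPM in GFP and 135.5, 139.1 and 123.3 CPM in CRE (log2 fold change 0.88, SE 0.12, adjusted p = 0.000161; 0.74 without GFP replicate 1). For both, all CRE libraries lay above all GFP libraries. Tgfa, a further EGFR ligand, was called at an adjusted p of 0.0483 (log2 fold change 0.47, SE 0.18) and lost the call without GFP replicate 1 (0.125), GFP replicate 3 (0.113), CRE replicate 2 (0.105) or CRE replicate 3 (0.160), and with DESeq2 (0.106), limma-voom (0.0545) or no filter beyond 1 count (0.0545). Btc, betacellulin, had 30, 40 and 32 counts in GFP and 27, 32 and 6 counts in CRE and was not called (-0.71, SE 0.44, adjusted p = 0.201; -0.25 without CRE replicate 3 and -1.12 without CRE replicate 2).

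Nrg1, the ligand of ERBB3 and ERBB4 that cardiomyocytes receive from endothelial cells, went the other way. It had 90.2, 86.1 and 84.8 CPM in GFP and 36.6, 39.3 and 50.3 CPM in CRE, 48.4% of the GFP level (log2 fold change -1.05, SE 0.10, adjusted p = 1.49e-05). Its share of the summed FPKM of the EGF family ligands was 41.7% ± 2.86 in GFP and 14.5% ± 4.20 in CRE, that of Hbegf 25.3% ± 1.86 and 43.7% ± 5.44, and that of Ereg 30.3% ± 4.67 and 39.8% ± 1.27. CRE replicate 3 was nearest to GFP for both Hbegf and Nrg1, and the ratio of Hbegf to Nrg1 was 1.94 in that library, against 4.20 and 3.54 in the other CRE libraries and 0.604 to 0.611 in GFP. Endothelial markers, which moved with Nrg1, are given with the VEGF family.

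None of the 3 EGF receptors was called. Egfr had 196.0, 254.0 and 216.0 CPM in GFP and 209.7, 219.1 and 209.1 CPM in CRE, with a log2 fold change of -0.06 (SE 0.08, adjusted p = 0.545) whose sign turned with scaling by library size alone (0.10). Erbb2, the partner receptor without a ligand of its own, was at 0.20 (SE 0.08, adjusted p = 0.0651) and passed under library size alone (0.36), upper-quartile scaling (0.22), log2(FPKM + 1) (0.31), without GFP replicate 2 (0.25) and without CRE replicate 1 (0.27). Erbb3 had 20 to 31 counts per library (0.23, SE 0.25, adjusted p = 0.479; 0.08 without GFP replicate 3), and markers of Schwann cells, which also express it, summed to 24.4 to 28.9 CPM in GFP and 21.2 to 25.8 CPM in CRE.

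Hepatocyte growth factor and its receptor differed in direction. Hgf had 21.3, 42.0 and 34.3 CPM in GFP and 14.9, 16.6 and 20.4 CPM in CRE, a log2 fold change of -0.92 (SE 0.21, adjusted p = 0.00421). GFP replicate 1 lay just above the highest CRE library, and without it the log2 fold change was -1.14. Met, the receptor of HGF, was called higher at an adjusted p of 0.0434 (log2 fold change 0.26, SE 0.10). That call was lost without GFP replicate 1 (0.0805), GFP replicate 2 (0.0662), GFP replicate 3 (0.0996) or CRE replicate 2 (0.156), and without CRE replicate 2 the log2 fold change was 0.15. It was also lost with DESeq2 (0.0696) and limma-voom (0.0526).

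All 6 ligands that act on endothelial receptors were called lower, against 25.7% of all tested genes. Their median log2 fold change was -0.88, and the call of Vegfa turned on the fit, as given below. Vegfb, a ligand of VEGFR1 linked to coronary vessels and fatty acid use, fell furthest, from 16.1, 13.8 and 14.3 CPM in GFP to 6.29, 4.65 and 6.28 CPM in CRE, 39.1% of the GFP level (log2 fold change -1.36, SE 0.13, adjusted p = 1.83e-05). Vegfd, a lymphatic growth factor, had 32.6, 45.5 and 38.9 CPM in GFP and 21.2, 22.6 and 23.1 CPM in CRE (-0.81, SE 0.11, adjusted p = 0.000151). Vegfc, the other lymphatic ligand, was lower by a log2 fold change of -0.57 (SE 0.07, adjusted p = 0.000101). For these 3 genes no CRE library reached the lowest GFP library.

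Vegfa, the main angiogenic factor, changed least. It had 275.6, 312.6 and 302.4 CPM in GFP and 254.0, 274.7 and 229.5 CPM in CRE, a log2 fold change of -0.23 (SE 0.07, adjusted p = 0.0178), and the gap between the groups was 275.6 against 274.7 CPM. The call was lost without GFP replicate 2 (adjusted p = 0.0577), GFP replicate 3 (0.0572), CRE replicate 1 (0.051) or CRE replicate 3 (0.0746). It was also lost with library size alone (-0.07, adjusted p = 0.418) and on log2(FPKM + 1) (-0.14, adjusted p = 0.0577). The FPKM ratio of Vegfa to Vegfb was 8.30, 10.6 and 10.1 in GFP and 17.8, 25.7 and 17.7 in CRE.

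The angiopoietins act on the receptor TEK, Angpt1 as an activator and Angpt2 mostly as its antagonist. Angpt1 had 11.2, 17.2 and 16.0 CPM in GFP and 6.66, 8.42 and 7.76 CPM in CRE (log2 fold change -0.96, SE 0.16, adjusted p = 0.000662; -1.13 without GFP replicate 1). Angpt2 had 19.8, 18.4 and 19.7 CPM in GFP and 9.89, 8.69 and 10.5 CPM in CRE (log2 fold change -0.99, SE 0.09, adjusted p = 1.58e-05). The activator stood at 51.3% of its GFP level and the antagonist at 50.3%. Of 14 endothelial markers, 12 were lower and none was higher, with Pecam1 at 73.4 ± 5.27 CPM in GFP and 39.6 ± 3.12 CPM in CRE and Cdh5 at 141.7 ± 10.7 and 80.1 ± 6.93 CPM. The part of endothelial RNA in the levels of Angpt2, Nrg1 and the other ligands of this family was not tested.

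The receptors of these ligands, which are outside the 46 members and were picked after their values were seen, did not share a direction. Flt4, the receptor of VEGFC and VEGFD, was higher (log2 fold change 0.95, SE 0.09, adjusted p = 1.99e-05) and Tek was lower (-1.20, SE 0.08, adjusted p = 1.64e-06). Kdr, the main receptor of VEGFA, was not called (-0.42, SE 0.16, adjusted p = 0.0546), nor was Flt1, which binds VEGFA and VEGFB (0.06, SE 0.09, adjusted p = 0.633).

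In the neurotrophin family, Bdnf, the ligand of NTRK2, had 111.8 to 138.8 CPM across the 6 libraries and was not called (-0.02, SE 0.07, adjusted p = 0.857). Ntrk2 had 13, 6 and 6 counts in GFP and 14, 22 and 27 counts in CRE. It passed the filter through its CRE libraries, its groups overlapped in CPM, and it was called at a log2 fold change of 1.24 (SE 0.43, adjusted p = 0.033), a call lost without GFP replicate 2 (0.104), GFP replicate 3 (0.126), CRE replicate 2 (0.0831) or CRE replicate 3 (0.117), and with DESeq2 (0.0557). With at least 10 counts required in every library it was not tested, which leaves 13 higher members and 3 higher receptors. Ntrk3, the receptor of neurotrophin 3, was not called (0.17, SE 0.21), and its log2 fold change ran from 0.04 without CRE replicate 3 to 0.34 without CRE replicate 1.

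Gas6, a vitamin K-dependent ligand that bridges dying cells to phagocytes, had 454.1, 541.8 and 492.7 CPM in GFP and 530.8, 540.1 and 561.9 CPM in CRE, which overlapped (log2 fold change 0.13, SE 0.06, adjusted p = 0.096). With scaling by library size alone and on log2(FPKM + 1) it was 0.30 and passed, without GFP replicate 2 it was 0.20 and passed (adjusted p = 0.0133), and without GFP replicate 1 it was 0.07. Mertk, 1 of its 3 receptors, was higher by 0.49 (SE 0.13, adjusted p = 0.0082). The other GAS6 receptors, outside the members and again picked after their values were seen, were Axl, lower by -0.26 (SE 0.05, adjusted p = 0.00125) at 1548.1 ± 36.7 CPM in GFP, and Tyro3, higher by 0.35 (SE 0.07, adjusted p = 0.00226) at 30.5 ± 0.994 CPM in GFP. Per length, Axl was the most abundant GAS6 receptor transcript in both groups (382.4 and 355.0 FPKM, against 1.28 and 2.02 FPKM of Mertk).

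Csf1 and Kitl, the ligands of the related receptors CSF1R and KIT, moved apart. Csf1 had 2493.0, 2261.1 and 2247.2 CPM in GFP and 2833.4, 2968.0 and 2823.7 CPM in CRE, a log2 fold change of 0.30 (SE 0.05, adjusted p = 0.000523). The rise is small on the log scale but is the largest in CPM of any member. Kitl, stem cell factor, was called lower (-0.28, SE 0.09, adjusted p = 0.0282) although GFP replicate 1, at 63.5 CPM, lay inside the CRE range of 62.7 to 63.9 CPM, and the log2 fold change was -0.40 without that library. Leaving out any other library ended the Kitl call (adjusted p from 0.0667 to 0.0989), as did scaling by library size alone (-0.12, adjusted p = 0.304) and log2(FPKM + 1) (-0.11, adjusted p = 0.377). Csf1r itself, with 44 to 71 counts per library, was not called (-0.05, SE 0.19), while Kit was lower, 18.1 ± 1.07 CPM in GFP and 3.66 ± 0.534 CPM in CRE (-2.30, SE 0.12, adjusted p = 5.08e-07). Macrophage markers, of which 2 of 5 tested were lower and none higher, are given above.

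The heparin-binding ligands midkine and pleiotrophin were both lower and scarce. Mdk had 57, 52 and 55 counts in GFP and 25, 36 and 30 counts in CRE, without overlap (log2 fold change -0.92, SE 0.22, adjusted p = 0.0055). Ptn had 67, 132 and 128 counts in GFP and 75, 76 and 70 counts in CRE, so that GFP replicate 1 was inside the CRE range in CPM (-0.62, SE 0.20, adjusted p = 0.0266; -0.82 without that library). Leaving out any other library ended the Ptn call (adjusted p from 0.0521 to 0.104), as did scaling by library size alone (-0.46, adjusted p = 0.0763) and log2(FPKM + 1) (-0.32, adjusted p = 0.127).

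Gene lists on either side of the receptors were described by their counts. Of 12 tested genes listed as further ligands, 2 were higher and 5 lower (median log2 fold change -0.52), and 4 were higher with scaling by library size alone. Only 1 was higher without GFP replicate 1, GFP replicate 2, CRE replicate 1 or CRE replicate 3, and the call of Fgf11 was lost without GFP replicate 1 (adjusted p = 0.0512). Fgf11 (0.79) and Ntf5 (0.72) led the higher genes, and Fgf14 (-1.99), which passed the filter through GFP with 5 to 9 counts in CRE, was among the lower ones. Fgf11, Fgf12 and Fgf14 were on the list by family name, which does not make their products secreted receptor ligands. The share of further ligands called was 58.3%, against 51.2% of all tested genes. Of 28 further receptor tyrosine kinases, 5 were higher and 12 lower (median -0.10), 17.9% and 42.9% against 25.5% and 25.7% of all tested genes, from Ret, the GDNF receptor (1.79), and Epha2, an ephrin receptor (1.05), to Tie1, the endothelial partner of TEK (-1.36), and Kit (-2.30). Kdr, Flt1, Tek and Tie1 are also endothelial markers.

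Proteins that present or release ligands were mixed. Among 16 co-receptors, mostly heparan sulphate proteoglycans, 3 were higher and 4 lower (median -0.08; 6 higher with scaling by library size alone), 43.8% called against 51.2%, with the glypicans Gpc2 (0.67) and Gpc1 (0.56) higher and Gpc3 (-1.47) and Gpc6 (-0.71) lower. Among 16 genes of ligand release and processing, 6 were higher and 5 lower (median 0.00; 3 lower with scaling by library size alone), 68.8% called against 51.2%. The serine proteases St14 (2.08) and Plat (0.77) were higher and Plau (-1.30) and the proprotein convertase Pcsk5 (-1.20) lower. St14 had 6, 9 and 17 counts in GFP and 55, 48 and 39 counts in CRE, and passed the filter through CRE. Among the ADAM proteases, which cut membrane-bound ligands and were named after their values were seen, Adam17 (0.44) and Adam10 (0.11, adjusted p = 0.0426) were higher, Adam12 (-0.26) and Adam19 (-0.62) were lower, and Adam9 (0.02) and Adam15 (0.08) were not called.

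Components and targets downstream of the receptors were counted in the same way. Of 36 receptor adaptors and core components of the RAS-ERK and PI3K cascades, 11 were higher and 9 lower (median 0.01), 55.6% called against 51.2% of all tested genes, with Shc2 (0.99) and Nck2 (0.54) at one end and the docking proteins Gab1 (-0.65) and Gab2 (-0.58) at the other. With scaling by library size alone 19 of them were higher, while the median of all tested genes moved from 0.01 to 0.17. The feedback inhibitors were 6 higher and 5 lower of 19 (median 0.09), 57.9% called and so near the 51.2% of all tested genes, and 10 higher and 2 lower with scaling by library size alone. The ERK phosphatases Dusp5 (1.80) and Dusp4 (0.87) were higher, and the Sprouty genes Spry1 (-1.61) and Spry2 (-1.35), which damp receptor signalling, were lower. Of 17 transcripts known to respond to ERK activity, 14 were higher and 1 lower (82.4% higher against 25.5%, median 0.84 against 0.01 for all tested genes), and their summed level was 428.1 to 433.0 CPM in GFP and 726.4 to 782.9 CPM in CRE. The immediate early genes Fosb (3.05) and Egr1 (2.42) led, and Etv1 (-0.61) was the lower gene (2 were lower without CRE replicate 1). Fosb had 7, 21 and 15 counts in GFP and 148, 138 and 89 counts in CRE, and passed the filter through CRE. The feedback inhibitors above, Spry1 and Spry2 among them, also respond to ERK and are not counted in this list. ERK activity itself was not measured, and the transcripts of the list also answer to other stimuli.

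**Figure D5:**
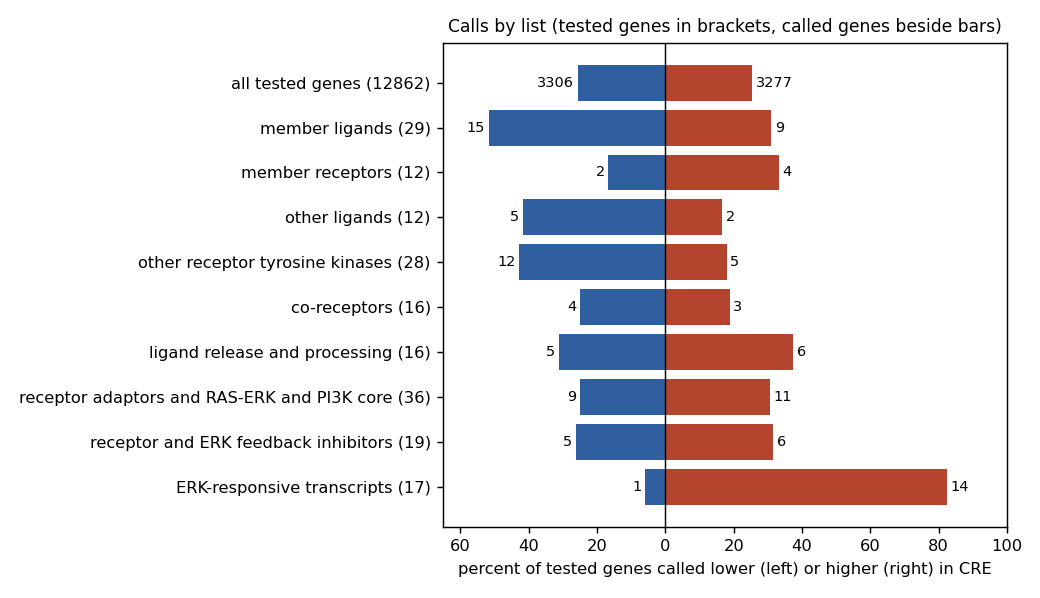
Percent of tested genes that were called lower (blue, left) or higher (red, right) in CRE at an adjusted p under 0.05, for all 12862 tested genes, the member ligands and receptors, and 7 lists of related genes (tested genes in brackets, called genes beside the bars). Member ligands were lower in 15 and higher in 9 of 29, and ERK-responsive transcripts were higher in 14 and lower in 1 of 17.

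Some members share sequence with neighbouring genes. In the annotation, 16 of the 46 members share exonic bases with another gene, in 4 cases with a gene of the table. Fgf2 shares 640 exonic bases with Nudt6 on the opposite strand, which had 15 to 41 counts per library and a log2 fold change of -0.92 (adjusted p = 0.0408), against 5601 to 15233 counts of Fgf2. Erbb2 shares 9 bases with Mien1, Fgfr2 shares 314 with Ctbp2 on the same strand, and Gas6 shares 34 with Tmem255b, which had 0 counts. The largest overlaps with genes outside the 22063 counted were on the opposite strand. They covered 998 of 7158 exonic bases of Fgfr3, 896 of 6217 of Bdnf, 813 of 3119 of Pdgfa and 737 of 5205 of Angpt1. The study's methods name a stranded library kit, and the labels name a different kit. Whether reads were counted by strand is not given in the sources used here, so antisense reads cannot be told apart from those of the gene.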

How the data were processed

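The deposited table gives raw counts and FPKM for 22063 genes in 6 libraries. Per the study's methods, the authors used Trimmomatic for trimming, HISAT2 for alignment to GRCm38, HTSeq-count for counting and Cufflinks for FPKM. Versions and the strand setting are not given in the sources used here, and labels and methods name different extraction and library kits. The authors' group means, log2 ratios, p-values and false discovery rates are also in the table and were not used.

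Counts as deposited by the authors were tested with edgeR 4.0.16 under R 4.3.3. The filter filterByExpr, with a minimum count of 10 and a minimum total of 15, left 12862 genes. TMM scaling factors were 0.9438 to 0.9465 for GFP and 1.052 to 1.063 for CRE. The quasi-likelihood test of CRE against GFP was two-sided, with Benjamini-Hochberg adjustment over all 12862 genes. SE was derived from the log2 fold change and the square root of F. The study's methods name DESeq, and DESeq2 1.42.0 served as an alternative. An exact permutation test of 3 against 3 libraries cannot go below p = 0.1 and was not used for calls. FPKM as deposited by the authors served for levels and ratios, which carry no test.

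Members and lists were chosen with earlier results of these data known. Values per library are given for members with an adjusted p under 0.05, a fold over 1.5 or under 0.66 and separate groups, or among the 8 highest mean FPKM, and for others where a call turned on single libraries. From each of the 7 related lists up to 2 genes per direction with the largest changes were named, at a mean of at least 1 CPM and with separate groups. A gene that this rule names is not reported here. The alternatives were RLE, upper-quartile or library size scaling, a filter of at least 10 counts in each library or of more than 0 counts in all, DESeq2, limma-voom and limma on log2(FPKM + 1) (limma 3.58.1), the replicate number as a block, an adjusted p under 0.01, and each library left out in turn. The scripts were tested on simulated counts in which 200 of 12862 genes changed 1.5-fold. There 9.8% of the calls were false, above the nominal level. In these data 51.2% of the tested genes were called, so that share does not carry over. Calls just under the threshold are the least certain. Promoter windows and gene models are RefSeq and GENCODE annotation of GRCm38. Figures were drawn with matplotlib 3.10.9.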

Additional observations from a re-analysis of the deposited data

How the results depend on the processing

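Of the 32 called members, 24 passed in all 15 other fits and none changed sign. The other 8 (Fgf1, Tgfa, Ntrk2, Met, Vegfa, Kitl, Ptn and Pdgfrb) lost the call in at least 1 fit. With 3 libraries a group, changes of a few counts in members such as Fgf1, Ntrk2 or Mdk rest on few reads. Receptors called higher were 4, but 2 with DESeq2, 2 at an adjusted p under 0.01, and between 2 and 5 with 1 library left out (2 without GFP replicate 3 or CRE replicate 2). Members called higher were 14 and 9 at an adjusted p under 0.01. On log2(FPKM + 1), receptors called lower were 1 rather than 2, and members past the study's size limits were 5 higher rather than 8 and 6 lower rather than 13. The cause of these shifts was not tested.

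Deviations of same-numbered libraries correlated at 0.046, 0.18 and -0.0181. Those of differently numbered libraries ran from -0.116 to 0.0713, so only the pair of replicate 2 lay above them. With the replicate block 14 members were higher and 19 lower, with Gas6 (adjusted p = 0.0484) and Pdgfb (0.0324) gained and Ntrk2 (0.0564) lost. Signs turned only for members that were not called. Fgfr2 was at -0.001 with the replicate block and -0.008 with limma-voom, and between -0.089 and 0.157 with 1 library left out. Egfr was at 0.10 with library size alone, 0.111 on log2(FPKM + 1), and between -0.146 and 0.043 with 1 library left out. Bdnf was at 0.143 with library size alone, 0.00 with upper-quartile scaling and 0.135 on log2(FPKM + 1), and between -0.11 and 0.049 with 1 library left out. Fgfr1 lay between -0.018 and 0.062 with 1 library left out. With library size alone, the median over all tested genes was 0.17 rather than 0.01, and 17 members were higher and 15 lower.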
